A study of Mus musculus with 6 samples.

Results

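The cystatins are a family of small proteins. Its best known members block cysteine proteases of the papain class, such as the lysosomal cathepsins, by inserting into the active site cleft. Type 1 members (stefins, here Cstb) stay in the cytosol, whereas type 2 members carry a signal peptide and are secreted. In mice several type 2 genes lie side by side in a cluster, and a number of these are active mainly in the reproductive tract. Cst9, also called testatin, is known as a gene switched on in the supporting cells of the fetal testis soon after Sry, whereas Cst3 and Cstb are active in most tissues.

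The set comprised 10 genes, Cst3, Cst6, Cst7, Cst8, Cst9, Cst10, Cst11, Cst12, Cst13 and Cstb, and a gene was taken as measured where a probe set was annotated to it alone. This held for 9 of the 10, each with a single probe set, out of 19937 genes measured in this way. Cst8 had no such probe set and was not analysed here. RNA came from fetal mouse gonads at E13.5 (embryonic day), dissected free of the mesonephros, from mice of a mixed C57BL6/J and 129 background. Wild type is represented by 3 arrays (numbers 1, 2 and 5), with 6 gonads pooled per array. Sox9flox/flox; Sf1:creTr/+ embryos, called the Sox9 mutant, gave 3 more (numbers 3, 4 and 6) with 12 gonads pooled per array. In them Cre recombinase, driven by regulatory sequence of Sf1 (Nr5a1), a gene of gonadal somatic cells and other steroid-producing tissues, acts on floxed Sox9. SOX9 is the transcription factor that drives Sertoli cell differentiation. Pool size thus went with genotype, and no group carried the Cre or the floxed alleles alone, so these cannot be told apart from the loss of Sox9. The labels name neither embryo sex nor litter, and p-values reflect the spread between these arrays alone, in which technical error may weigh.

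Values are RMA intensities on the log2 scale, on which 1 unit is a 2-fold difference. A background mark of 6.67 log2 was taken from olfactory and vomeronasal receptor probe sets, and values below it say little about the size of a difference. Sox9 itself was lower on each mutant array (7.52, 7.78 and 7.60) than on any wild-type array (8.82, 8.81 and 9.20). Of 14 Sertoli cell genes listed as markers, each had a group mean above the mark. Wild-type array 5 stood apart in liver genes, with Alb at 11.42 against 5.94 and 6.06 on arrays 1 and 2. Mutant array 4 was the highest mutant for 11 of the 14 Sertoli genes and for all 5 measured Leydig genes.

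The sequence just upstream of the gene start is shown for 3 genes of the cluster on chromosome 2, which are not adjacent to each other. They are the called members Cst9 and Cst12, the latter called below the background mark, and the widespread Cst3. Capitals mark CG pairs, the sites of DNA methylation, which are frequent in promoters of widely active genes. The sequences are RefSeq's (GRCm38.p6), 250 bases ending at the base before the annotated start.
Cst9, chr2:148834897-148835146, plus strand: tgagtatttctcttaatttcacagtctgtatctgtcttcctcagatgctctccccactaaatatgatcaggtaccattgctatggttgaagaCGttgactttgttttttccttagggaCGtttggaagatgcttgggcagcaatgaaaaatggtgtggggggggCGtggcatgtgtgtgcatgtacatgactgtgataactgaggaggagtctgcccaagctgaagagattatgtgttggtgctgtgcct
Cst12, chr2:148789115-148789364, plus strand: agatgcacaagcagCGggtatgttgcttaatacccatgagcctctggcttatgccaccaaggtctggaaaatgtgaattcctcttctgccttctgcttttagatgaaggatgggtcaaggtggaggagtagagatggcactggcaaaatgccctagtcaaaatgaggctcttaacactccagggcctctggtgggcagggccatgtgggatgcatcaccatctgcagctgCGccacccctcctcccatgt
Cst3, chr2:148875513-148875762, minus strand: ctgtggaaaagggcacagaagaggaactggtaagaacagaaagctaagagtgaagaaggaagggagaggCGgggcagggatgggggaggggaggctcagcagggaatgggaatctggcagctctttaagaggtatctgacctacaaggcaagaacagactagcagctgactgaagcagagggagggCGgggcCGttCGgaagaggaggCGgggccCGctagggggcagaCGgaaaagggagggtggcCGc
Cst9 held 3 CG pairs, Cst12 held 2 and Cst3 held 8, against a median of 6 over 32851 such windows. Of the other members with a window, Cst7 held 4, Cst8 and Cst10 held 1 each and Cst13 held 0. Few CG pairs were thus not particular to the called members, and no link between CG pairs and the array values was tested. The G and C content was 45.6% for Cst9, 52.8% for Cst12 and 59.6% for Cst3, with a median of 52.4%. Searched on both strands, ACAAT, the core letters that SOX proteins bind, occurred in none of the 3 windows and in 27.7% of all windows. AAGGTCA, the letters bound by NR5A1, also occurred in none of the 3 and in 4.08% of all windows. Windows were found for 7 of the 10 members. Among the other 4 (Cst7, Cst8, Cst10 and Cst13), Cst13 held 1 ACAAT match and 1 AAGGTCA match and Cst8 held 1 AAGGTCA match, and the remaining pair held neither. A match is a run of letters and not a measured binding site, and its absence says only that these letters are not in this window.

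Cst9, the Sertoli cell member, was far lower in the Sox9 mutant. Wild-type arrays 1, 2 and 5 gave 10.45, 10.49 and 10.74 log2 for it, while mutants 3, 4 and 6 gave 5.84, 7.91 and 5.50. Every mutant value lay below every wild-type value, with 2.54 log2 between the nearest pair, and mutants 3 and 6 lay below the background mark. Cst9 fell by 4.14 ± 0.51 log2 (moderated SE; limma, Benjamini-Hochberg adjusted p = 0.00221), a 17.7-fold difference, from 10.56 ± 0.16 to 6.41 ± 1.31 (SD, n = 3 each). In whole gonads, fewer cells of a type and less RNA per cell cannot be told apart.

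**Figure D1:**
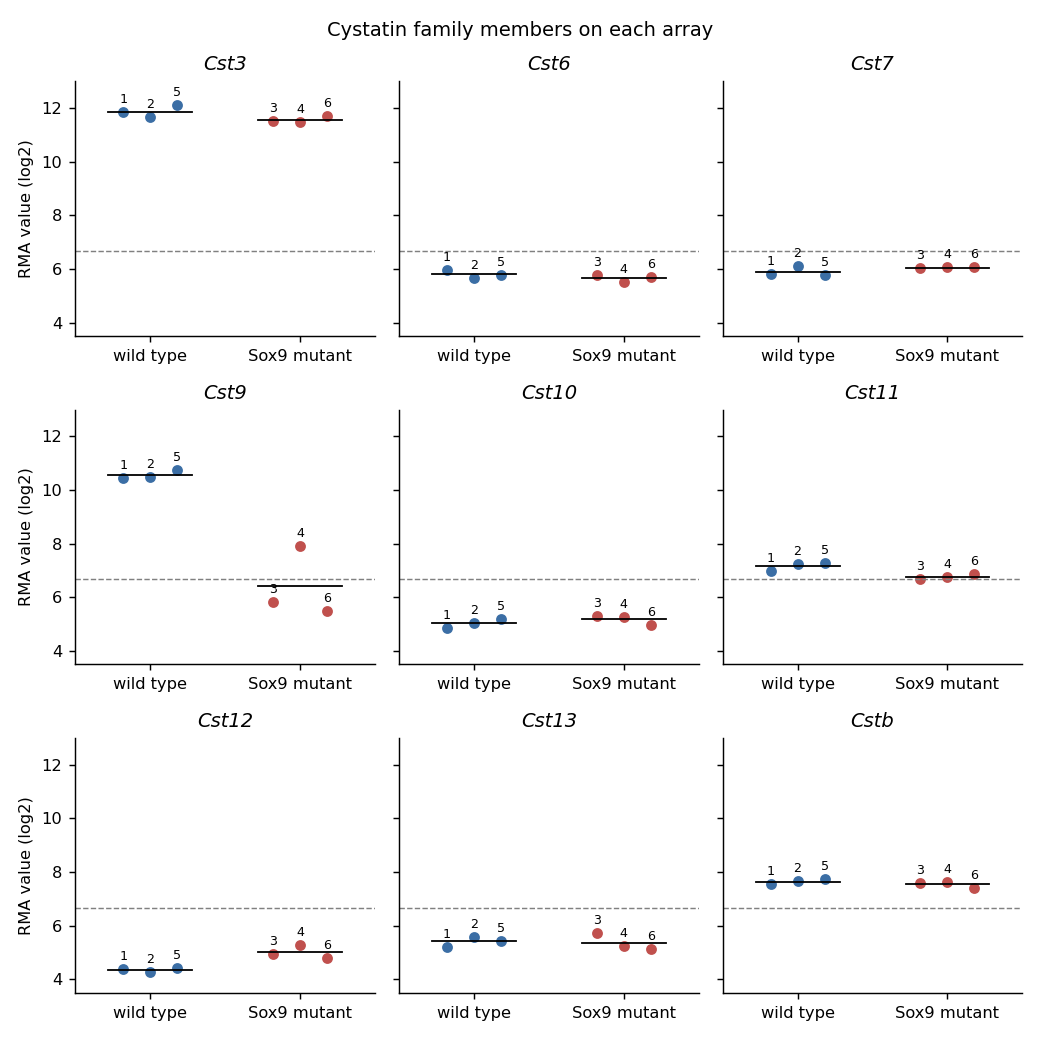
RMA values (log2, vertical axis) of the 9 measured cystatin members on each array, wild type in blue and Sox9 mutant in red, with array numbers above the points, group means as black bars and the background mark of 6.67 log2 dashed. Heights are comparable within a panel and not between genes; Cst9 separates the groups widely, from 10.45 or more to 7.91 or less, while Cst12 separates them below the dashed line.

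Mutant array 4 kept more Cst9 than the other mutants. Its value exceeded the mean of mutants 3 and 6 by 2.24 log2, and the mutant SD of Cst9 was larger than that of 99.9% of all genes. Of the 14 listed Sertoli genes 9 fell, and each of those 9 was highest on mutant 4 among the mutants. The same held for all 5 measured Leydig genes, with an excess from 0.92 log2 (Fdx1) to 3.79 (Cyp17a1). The pattern is thus not particular to Sertoli genes, and its share among all genes was not counted. Amh, anti-Müllerian hormone, measured 5.91, 8.91 and 5.89 on mutants 3, 4 and 6, so mutant 4 exceeded the mean of the other mutants by 3.01. Hsd17b3, an enzyme of testosterone synthesis, did so by 2.24, and Dhh, the Hedgehog ligand of Sertoli cells, by 0.86. For Sox9 the excess on mutant 4 was 0.22 log2. Without mutant 4 the differences were -5.33 for Amh, -4.25 for Hsd17b3 and -2.52 for Dhh. On mutants 3 and 6 each of these genes lay below the background mark, so the sizes of these differences and excesses are uncertain. With trend and robust moderation the calls of Amh and Hsd17b3 ended (limma adjusted p = 0.0802 and 0.0518). Without mutant 4 the fall of Cst9 was larger (difference -4.89, limma adjusted p = 6.54e-06), and without mutant 6 it was smaller (-3.68, adjusted p = 0.0033). Within numbers 1 to 4 the difference was -3.59, and between the single arrays 5 and 6 it was -5.24.

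Other cell types moved in the same comparison. Of 14 Sertoli markers 9 fell, 1 rose and 4 did not pass (median difference -1.57 log2). Over all genes 4.3% were called lower and 2.64% higher. The markers that did not pass, Sox10, Fgf9, Gata4 and Dmrt1, differed by -0.48, -0.53, 0.13 and -0.23. The riser, singled out after its values were seen, was Wt1, a transcription factor of gonadal somatic cells, which rose by 0.57. The call of Wt1 ended without wild type 2 or 5 or mutant 3 or 4 (limma adjusted p from 0.0587 to 0.0907), among numbers 1 to 4 alone (0.0895) and without wild type 5 and mutant 4 together (0.147). All 5 measured Leydig markers fell, among them Cyp11a1, Cyp17a1, Star and Hsd3b1, enzymes and a transporter of steroid synthesis, with differences of -4.70, -4.29, -3.34 and -2.34, and of -5.85, -5.55, -3.84 and -2.71 without mutant 4. Cyp11a1 and Hsd3b1 lay below the background mark on mutants 3 and 6, so the sizes of their falls are uncertain. The Leydig count was 3 with trend and robust, where the calls of Cyp17a1 (limma adjusted p = 0.15) and Cyp11a1 (0.0969) ended. That of Cyp17a1 also ended without wild type 1, 2 or 5 or mutant 3 (adjusted p from 0.0619 to 0.0827) and among numbers 1 to 4 alone (0.075). The summed Leydig level ran from 13.68 to 13.80 log2 in wild type and from 9.22 to 11.79 in the mutant, with the top at mutant 4 (11.79). All 7 markers of pregranulosa cells, which are the ovarian supporting lineage, rose, led by Fst with 3.62, and their summed level ran from 10.20 to 10.31 in wild type and from 12.04 to 12.34 in the mutant. These marker genes were chosen with earlier results of these data known. Their part in the difference of Cst9 was not tested.

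**Figure D2:**
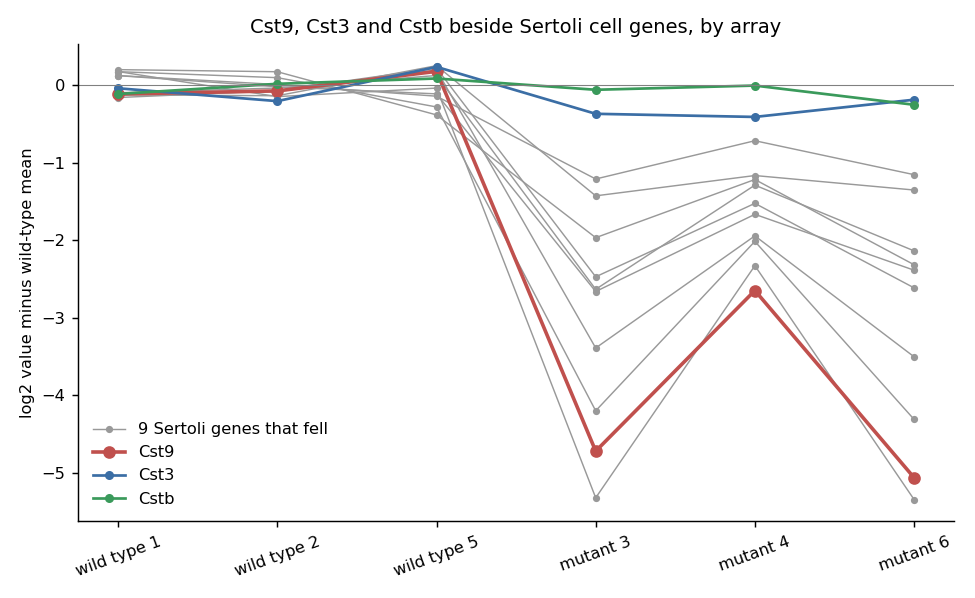
Log2 value minus the wild-type mean (vertical axis) for each array, for Cst9 (red), Cst3 (blue), Cstb (green) and the 9 Sertoli cell genes that fell (grey). On mutant 4 Cst9 and all 9 grey lines stand higher than on mutants 3 and 6, whereas Cst3 and Cstb stay within 0.5 log2 of their wild-type means on every array.

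The genes whose profile over the 6 arrays was most like that of Cst9, among 13391 with a group mean above the mark, were C7, Slc6a9, Aard, Higd2a and Adh1, with Pearson r of 0.9996, 0.9994, 0.9993, 0.999 and 0.998. All arrays enter each r, which therefore reflects the group difference together with the level of mutant 4. C7, a late complement component, fell by 1.96 log2 (limma adjusted p = 0.00237) and Aard fell by 2.94 (adjusted p = 0.00195). Adh1, an alcohol and retinol dehydrogenase, measured 11.42, 11.13 and 11.73 in wild type and 7.21, 9.14 and 6.95 in the mutant, and fell by 3.66 (adjusted p = 0.00299). Without mutant 4 the differences were -2.30 for C7, -3.45 for Aard and -4.35 for Adh1. C7 lay below the background mark on mutants 3 and 6, so the size of its fall is uncertain. Slc6a9, a glycine transporter, and Higd2a, a mitochondrial protein, followed the same shape with small differences of -0.26 and -0.33 that did not pass (adjusted p = 0.226 and 0.128).

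Cst3 and Cstb, the widespread members, did not pass the test. Cst3, which encodes cystatin C, a secreted inhibitor found in most body fluids, measured 11.83, 11.66 and 12.10 log2 in wild type and 11.50, 11.46 and 11.68 in the mutant. The groups overlapped narrowly, since mutant 6 stood above wild type 2, and wild type 5 was the highest of all arrays. The difference was -0.32 ± 0.14 (95% interval -0.64 to -0.0029, limma adjusted p = 0.255), and without wild type 5 it was -0.20 (adjusted p = 0.516). Cstb, the cytosolic stefin B, measured 7.54, 7.67 and 7.74 in wild type and 7.59, 7.65 and 7.40 in the mutant. Its groups overlapped throughout, and the difference was -0.10 ± 0.12 (interval -0.37 to 0.17, adjusted p = 0.72). The sign of the Cstb difference turned among numbers 1 to 4 alone (0.016).

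The change of Cst9 was set against those of Cst3 and Cstb within each array, which leaves out any shift common to an array. Cst9 minus Cst3 came to -1.38, -1.18 and -1.37 for wild type 1, 2 and 5, and to -5.66, -3.55 and -6.19 for mutants 3, 4 and 6. The mutant differences did not overlap those of wild type. The change of Cst9 minus that of Cst3 was -3.82 ± 0.81 log2, and minus that of Cstb it was -4.04 ± 0.70 (SE, n = 3 each). An exact two-sided permutation test over the arrays gave p = 0.1 for both pairs, also after adjustment over the 2 pairs, which is the smallest p that 3 against 3 arrays allow. The groups stood 2.54 log2 apart for Cst9 alone, more than Cst3 or Cstb varied over all arrays. The separation and this p therefore followed from the fall of Cst9 and add no separate support to it.

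**Figure D3:**
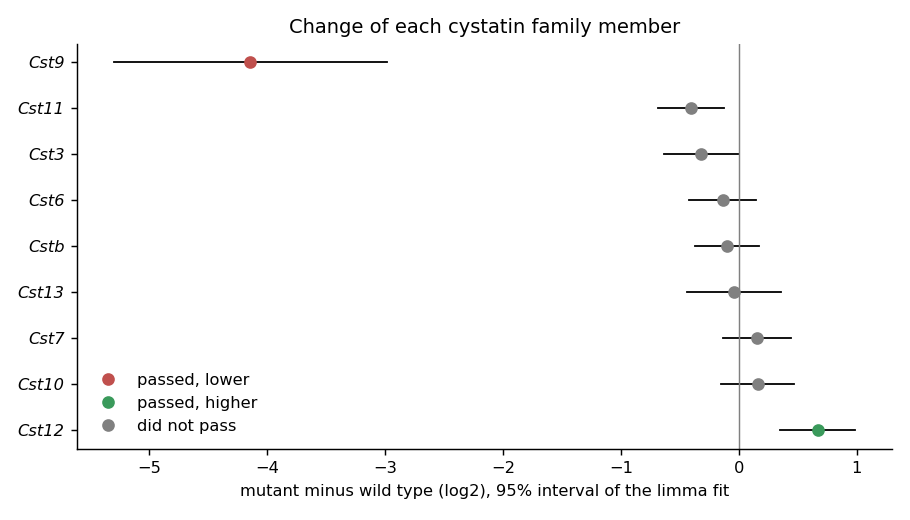
Mutant minus wild type difference (log2, horizontal axis) of each measured cystatin member with the 95% interval of the limma fit; red and green mark members that passed the test, grey those that did not. Cst9 lies at -4.14 with the widest interval, Cst12 at 0.67, and the 7 others between -0.40 and 0.16.

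Cst12 was the only member that rose, and it did so below the background mark. Cst12 (also named CRES3, after its likeness to the epididymal and spermatogenic cystatin CRES) measured 4.38, 4.28 and 4.41 log2 in wild type and 4.97, 5.30 and 4.82 in the mutant. The groups did not overlap, and each of the 6 values was at least 1 log2 unit below the mark of 6.67. It rose by 0.67 ± 0.14 (limma adjusted p = 0.0258), which ended without any of wild type 1, 2 or 5 or mutant 3 or 4 (adjusted p from 0.0647 to 0.0979), while without mutant 6 it held. Among the 6545 genes with both group means below the mark, 0.81% were called higher. The genes most like it in profile over the 6 arrays were Tmie, Zfp791, Ces2g, Stra6 and Irx5 (Pearson r from 0.9805 to 0.9923). All arrays enter each r here too, so it reflects the group difference together with the level of mutant 4. Of the 5 genes Irx5, a homeobox gene of the ovarian supporting cells, rose by 0.68 (adjusted p = 0.0278) and the others did not pass. The wild-type values of Irx5, 6.32, 6.25 and 6.16, lay below the mark. The call of Irx5 ended without any of wild type 1, 2 or 5 or mutant 3 or 4 (adjusted p from 0.0634 to 0.0888), among numbers 1 to 4 alone (0.0539) and without wild type 5 and mutant 4 together (0.169).

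Taking the members as a whole, 1 fell, 1 rose and 7 did not pass. Over all 19937 genes 6.94% were called, 4.3% lower and 2.64% higher. The groups did not overlap for 3 of 9 members, Cst9, Cst11 and Cst12, against 28.7% of all genes. The median difference of the members was -0.10 log2, and that of all genes was 0.0041. In 5 of 9 members (Cst6, Cst7, Cst10, Cst12 and Cst13) both group means lay below the mark.

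Cst11, a cystatin known from the epididymis (CRES2), was near the mark and lower on each mutant array without passing. Its values were 6.99, 7.25 and 7.29 log2 in wild type and 6.70, 6.77 and 6.86 in the mutant. The groups did not overlap, being 0.13 apart at their nearest, and the difference was -0.40 ± 0.12 (interval -0.68 to -0.12, limma adjusted p = 0.105). Its adjusted p ran from 0.0593 to 0.39 over the alternatives. Among 7 genes listed as markers of the mesonephros and epididymal duct, Emx2 rose by 1.61 and Gata3 by 1.20 while Lhx1 fell by 0.96, and 4 did not pass. Whether these genes were active in duct cells or in other cells of the gonad was not tested. Over all genes 4.3% were called lower and 2.64% higher. The call of Lhx1 ended without wild type 1 or 2 or mutant 3 (limma adjusted p from 0.0645 to 0.0834). The 4 that did not pass, Pax2, Pax8, Cdh16 and Ret, differed by 0.030, 0.44, 0.19 and -0.15. The summed level of the 7 ran from 10.01 to 10.23 in wild type and from 10.49 to 10.85 in the mutant, above the wild type on all 3 mutant arrays. Emx2, with group means of 7.72 and 9.32, was the brightest of the 7 in the mutant and weighs most in that sum. The sum is therefore no measure of duct cells. What part duct cells have in the values of Cst11 and Cst12 was not tested.

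The other members stayed below the mark on all 6 arrays. Cst7, which encodes cystatin F of leukocytes, ran from 5.77 to 6.12 in wild type and from 6.03 to 6.06 in the mutant (difference 0.15 ± 0.13, limma adjusted p = 0.582). None of 12 macrophage and leukocyte genes passed in the limma fit, 1 of them at an unadjusted p under 0.05, and their summed level ran from 10.43 to 10.58 in wild type and from 10.44 to 10.58 in the mutant. Cst10, known from cartilage where it bears on calcification, ran from 4.86 to 5.18 and from 4.98 to 5.32 (difference 0.16 ± 0.14, adjusted p = 0.599). None of 5 cartilage genes passed, and 0 had an unadjusted p under 0.05. Cst6, cystatin E/M, an inhibitor of skin that also blocks legumain, ran from 5.66 to 5.97 and from 5.53 to 5.76 (difference -0.14 ± 0.13, adjusted p = 0.627). Cst13, a cystatin gene of the testis, ran from 5.20 to 5.60 and from 5.14 to 5.75 (difference -0.042 ± 0.18, adjusted p = 0.936). Such values do not show whether these genes are silent in the gonad.

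In the RefSeq order the cluster on chromosome 2 ran Cstl1, Cst11, Cstdc1, Cst12, Cst8, Cst13, Cst9, Cstdc2 and Cst3. Neighbours of Cst9 thus include Cst13, at background in both groups, and Cstdc2, with means of 5.42 ± 0.35 for wild type and 5.37 ± 0.24 for mutant arrays (SD over 3 arrays; limma adjusted p = 0.933). Cstdc1, a cystatin domain gene that is no member and was singled out after its values were seen, measured 6.75, 6.54 and 6.67 in wild type and 5.62, 5.83 and 5.27 in the mutant. The groups did not overlap, although just 2 of the values (wild type 1 and 5) exceeded the mark. Cstdc1 fell by 1.08 ± 0.15 log2 (adjusted p = 0.00426). Cstl1, at the far end, differed by 0.11 ± 0.14 (adjusted p = 0.742). Of the 8 measured genes of the cluster, Cst9 and Cstdc1 fell, Cst12 between Cstdc1 and Cst8 rose, and the remaining 5 did not pass. Among all genes 6.94% were called. Both group means lay below the mark for Cstdc1 (6.65 and 5.57) and for Cst12 (4.36 and 5.03).

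Genes of the proteases that the family is known for blocking were lower in part. Whether Cst9 or any other member acts on these proteases was not tested. Of 11 cysteine cathepsins and legumain, 2 fell, 0 rose and 9 did not pass, where 4.3% of all genes were called lower and 2.64% higher. Of the 11 differences 10 were negative, with a median of -0.30 log2, against 0.0041 for all genes. The groups did not overlap for 6 of the 11, against 28.7% of all genes. Ctsl, the lysosomal endopeptidase cathepsin L, measured 11.10, 11.28 and 11.19 in wild type and 10.02, 10.33 and 9.89 in the mutant. The groups stood apart on every array, and Ctsl fell by 1.11 ± 0.14 (limma adjusted p = 0.00221). Ctso, cathepsin O, measured 7.97, 7.86 and 8.03 against 7.11, 7.30 and 7.35. It fell by 0.70 ± 0.12 (adjusted p = 0.00959), a call that ended without wild type 1 (adjusted p = 0.0505) and without wild type 5 and mutant 4 together (0.09). Of those that did not pass, Ctsw, a cathepsin of cytotoxic lymphocytes, differed by -0.56, Ctsh, an aminopeptidase, by -0.46 and legumain (Lgmn), an asparaginyl endopeptidase, by -0.39 (adjusted p = 0.0865, 0.0672 and 0.12), each with no overlap between groups. Ctsw measured 7.04, 6.96 and 6.76 in wild type, near the mark, and 6.55, 6.51 and 6.02 in the mutant, below it. The size of its difference is thus uncertain. Ctsh passed with either filter on dim probe sets (limma adjusted p = 0.0366 and 0.0309), with numbers 5 and 6 as a batch (0.0471) and with gene means (0.0375), and Ctsw passed under the last pair of settings (0.0152 and 0.0471). Ctsb, Ctsz and Ctsf differed by -0.23, -0.22 and -0.30, and Ctsk, Ctss and Ctsc by -0.044, -0.031 and 0.085, with adjusted p of at least 0.361.

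**Figure D4:**
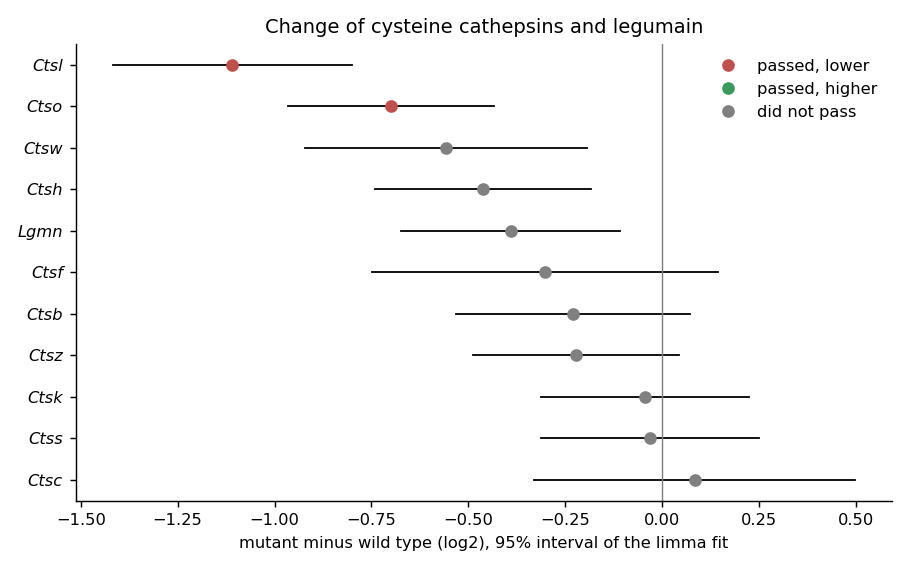
Mutant minus wild type difference (log2, horizontal axis) with the 95% interval of the limma fit for the 11 cysteine cathepsins and legumain; red marks genes that passed the test. Ctsl at -1.11 and Ctso at -0.70 passed, and all but Ctsc lie left of 0.

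Placental cathepsins and calpains were counted too. None of 7 placental cathepsins passed in the limma fit, 0 had an unadjusted p under 0.05, and both group means of all 7 lay below the mark. Calpains are intracellular calcium-dependent proteases that stefins and type 2 cystatins hardly touch. Of 15 genes of calpains, their small subunits and the calpain inhibitor calpastatin, 2 rose and 13 did not pass. Among all genes 2.64% were called higher. Capn1 measured 7.23, 7.29 and 7.31 in wild type and 7.65, 7.74 and 7.83 in the mutant, and rose by 0.47 (adjusted p = 0.0398). Capn7 measured 9.21, 9.19 and 9.07 against 9.65, 9.52 and 9.67, and rose by 0.46 (adjusted p = 0.0446). Both calls ended when any array was left out (adjusted p from 0.0761 to 0.149) and with the arrays set to a common median (0.0561 and 0.0638).

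Genes outside the set that encode a cystatin fold include those of the liver-made fetuins and kininogens. The list also held Cstl1 and the stefin genes Csta1, Csta2, Csta3, Stfa2 and Stfa3, which are of the cystatin family itself. Of 16 listed genes measured, 1 fell, 0 rose and 15 did not pass (median difference -0.00078 log2). Among all genes 4.3% were called lower. Both group means of 12 of the 16 lay below the mark. Fetub, fetuin-B, measured 6.47, 6.19 and 6.63 in wild type and 5.65, 6.01 and 5.71 in the mutant, all below the mark, and fell by 0.64 ± 0.15 (limma adjusted p = 0.0417). Without wild type 5 the difference was -0.54 (adjusted p = 0.125), and the call also ended without wild type 1, mutant 3 or mutant 6 (0.153, 0.15 and 0.0805). Ahsg, fetuin-A, measured 6.53, 6.26 and 7.89 against 5.57, 6.04 and 5.84, and differed by -1.08 (adjusted p = 0.133), or by -0.58 without wild type 5. Kng1, kininogen 1, was also highest on wild type 5 (6.82, against 5.63 and 6.01), and its difference of -0.41 was -0.079 without that array. The 7 measured fetal liver genes, Ahsg among them, summed to 9.19 and 9.48 log2 on wild type 1 and 2, to 12.85 on wild type 5, and to between 9.29 and 9.45 on the mutants. None of these 7 passed, 1 with an unadjusted p under 0.05. The part of liver RNA in the values of Ahsg, Fetub and Kng1 was not tested. Lxn, latexin, an inhibitor of carboxypeptidases that was singled out after its values were seen, measured 7.79, 7.66 and 8.26 in wild type and 7.67, 7.60 and 8.17 in the mutant. Its difference of -0.089 turned sign without wild type 5 (0.088).

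**Figure D5:**
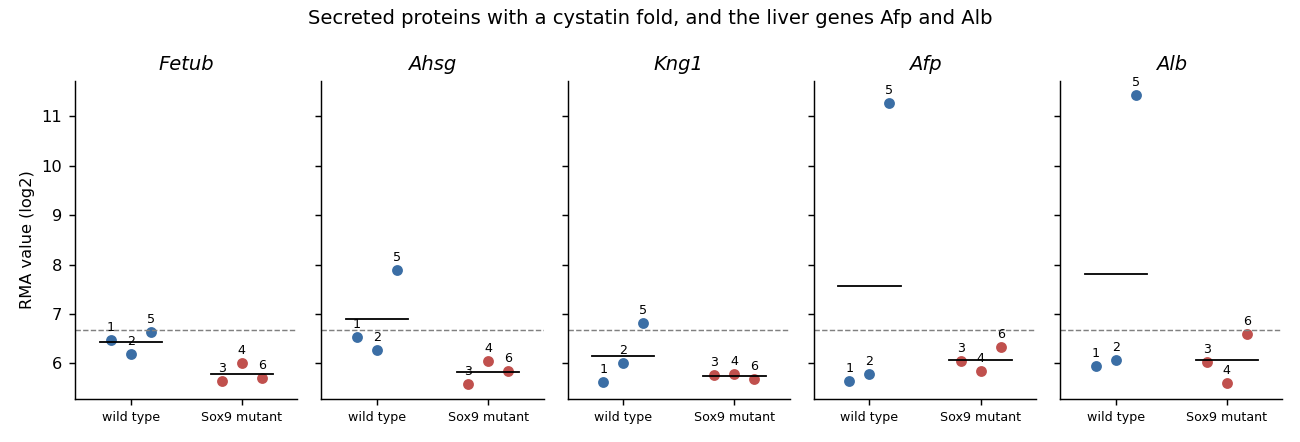
RMA values (log2, vertical axis) of Fetub, Ahsg and Kng1, secreted proteins with cystatin folds, and of the liver genes Afp and Alb on each array, wild type in blue and Sox9 mutant in red, with array numbers, group means as black bars and the background mark dashed. Wild type 5 is the highest array in all 5 panels.

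Remaining marker lists were measured to see which other cells the gonads held. Of 7 germ cell genes Stra8, a gene of meiotic entry, rose by 3.39 and the meiotic axis gene Sycp3 by 2.34, whereas Dppa3 fell by 1.55 and 4 did not pass. The call of Dppa3 ended without wild type 1, 2 or 5 (limma adjusted p from 0.063 to 0.0815), with trend and robust (0.0573) and without wild type 5 and mutant 4 together (0.0694), and that of Sycp3 under the last pair of settings (0.075 and 0.116). The germ cell sum ran from 12.83 to 13.06 log2 in wild type and from 13.05 to 13.14 in the mutant. Among 5 endothelial genes limma called 0, with 3 at an unadjusted p under 0.05. In the erythroid list Alas2, of haem synthesis, fell by 0.51 and 4 of 5 did not pass. Its call ended when any array was left out (limma adjusted p from 0.071 to 0.121), among numbers 1 to 4 alone (0.123), with quantile normalization (0.0518) and without wild type 5 and mutant 4 together (0.17). The erythroid sum ran from 10.38 to 10.64 in wild type and from 9.86 to 10.25 in the mutant. For these lists too, the shares over all genes were 4.3% called lower and 2.64% higher.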

How the data were processed

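The deposited table holds log2 values per probe set, made by the authors with RMA per the submitters' processing notes; for its settings and version, nothing was given in the sources used here. RMA corrects background, equalizes the distributions of arrays and so hides a general change in RNA content, and it compresses differences near background. Per the labels' protocols, 300 ng of total RNA went into each array; the number of arrays limits the precision. The 6573 of 34760 rows with identifiers below the annotated range were left out. Of 28187 rows tested 21640 had 1 gene, 1321 several and 5226 none; a gene was read from its brightest single-gene row. The background mark is the 95th percentile of 1204 receptor probe sets. Groups were compared with limma 3.58.1 (R 4.3.3; lmFit, eBayes, 2-sided), adjusted by Benjamini-Hochberg over 28187 rows at 0.05. Summed levels of lists are log2 of summed linear values. On simulated data for this comparison (28187 rows), 94% of 2-fold and 37.3% of 1.5-fold changes were recovered, with 8 unchanged rows called. The simulated noise was normal, independent between rows and of the same spread in both groups, and no array stood apart. Recovery in the real arrays can therefore differ. Named genes were the members, Sox9, up to 4 called genes per list (all called and, for the cathepsins, all measured), and the 5 genes most like each called member; genes singled out later, or named because an array stands apart, are described as such. The members and lists were chosen with earlier results of these data known. Alternatives were other scalings, filters, moderation, array weights, a batch of numbers 5 and 6, arrays left out, gene means and a stricter threshold. Promoter windows came from RefSeq (GRCm38.p6).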

Additional observations from a re-analysis of the deposited data

How the results depend on the processing

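Cst9 and Ctsl passed in the same direction under all 17 alternatives, Cst9 between -4.89 and -3.59 log2 (limma adjusted p up to 0.0315, with trend and robust). The change of Cst9 minus that of Cst3 ran from -4.62 to -3.30, and minus that of Cstb from -4.74 to -3.65, with 1 array left out. The count of members called lower was 1 throughout. That of members called higher, 1 (Cst12), was 0 above the background mark and among the brighter probe sets, where Cst12 is not tested, 0 without wild type 5 and mutant 4 together and at a threshold of 0.01, and 0 to 1 with 1 array left out. Of cathepsins and legumain 2 fell, against 4 with numbers 5 and 6 as a batch, 4 with gene means, 3 with either filter on dim probe sets, 1 without wild type 5 and mutant 4 together, and 1 to 2 with 1 array left out. Of calpains 2 rose, against 0 with a common median, numbers 1 to 4 alone, without wild type 5 and mutant 4 together or at 0.01, and 0 with any 1 array left out. Of the other cystatin-fold genes 1 fell, against 0 with either filter, array weights, numbers 1 to 4 alone, without wild type 5 and mutant 4 together or at 0.01, 2 with the batch term, and 0 to 1 with 1 array left out. The cause was not tested, other than that filters remove rows and fewer arrays enter some fits. Differences that changed sign never passed. Among numbers 1 to 4 alone these were Cst13 (0.091), Cstb (0.016), Ctsk (0.045) and Ctss (0.074), and without wild type 5 and mutant 4 together Cst13 (0.046), Cstl1 (-0.043), Lxn (0.19) and Ctss (0.070). With array weights it was Ctss (0.0015). With 1 array left out, Cst13 ran from -0.23 to 0.073, Lxn from -0.27 to 0.088, Ctsc from -0.059 to 0.24, Ctsk from -0.094 to 0.049 and Ctss from -0.12 to 0.066. No paired analysis was possible because the groups share no replicate number. Values below the background mark limit what can be said of Cst6, Cst7, Cst10, Cst12 and Cst13.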
